A study of Mus musculus with 18 samples.

Results

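Nuclear-retained long noncoding RNAs (lncRNAs) are transcripts that stay in the nucleus after they are made. The 6 examined here, *Malat1*, *Neat1*, *Miat*, *Kcnq1ot1*, *Snhg11* and *Pvt1*, were chosen by name. Each was found by its gene symbol as 1 locus, so that they are 6 of 52179 loci with a symbol and 6 of 168136 loci in all. RNA was collected on streptavidin-coated beads from Neuro2A cells, a mouse neuroblastoma line of wild-type genotype. The cells had received 25 nM of a biotin-tagged *miR-92b* mimic (*miR-92b* pulldown) or of a biotin-tagged scrambled mimic (Scr), or were untransfected (control). Lysates of isolated nuclei (nuclear) and of intact cells (whole cell) gave 6 groups of 3 samples, 18 in all, and the libraries were made from RNA selected with oligo-dT beads.

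The labels do not say whether samples of a group came from separate cultures, so that p-values measure only the spread between these samples. Depth, counted over the loci that carry a symbol, ran from 3752991 to 22920038 reads. Of 11 markers of sympathetic neuroblastoma cells, 10 had a mean of at least 1 FPKM (fragments scaled by the length of the transcript and the depth of the sample) and 1 was listed at 0. None of the 4 fibroblast or the 3 microglia markers reached that level, whereas 2 of 4 glia markers did. *Gapdh* and *Eef2*, cytosolic mRNAs that mark the cytoplasm, were lower in every nuclear than in every whole cell sample, by -2.35 (SE 0.20, adjusted p = 2.98e-09) and -2.90 (SE 0.20, adjusted p = 2.63e-10) on the log2 scale (limma).

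Background on the 6 RNAs is as follows. *Malat1* lies in nuclear speckles, domains rich in splicing factors, and *Neat1* is the scaffold of paraspeckles, of which the long isoform is essential. *Malat1* and this long isoform of *Neat1* end in an encoded A-rich stretch instead of in a conventional poly(A) tail. The stretch is left where RNase P cuts off a small tRNA-like RNA. *Kcnq1ot1* is an imprinted antisense RNA that silences neighbouring genes on the chromosome it comes from, *Miat* (also *Gomafu*) is a neuronal RNA with repeats that bind the splicing factor SF1, *Pvt1* lies next to the oncogene *Myc*, and *Snhg11* is a host gene of small nucleolar RNAs.

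The sequence of *miR-92b-3p* shows which letters a target would have to match, and its relatives share the seed (bases 2 to 8, in capitals). The mature sequences are from RefSeq, GRCm38.p6, where *miR-92b-3p* lies at chr3:89227126-89227147 on the minus strand. The sequence of the mimic itself was not used here.
mmu-miR-92b-3p: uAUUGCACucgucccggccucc
mmu-miR-92a-3p: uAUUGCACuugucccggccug
mmu-miR-25-3p: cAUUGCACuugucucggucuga

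Matches to this seed were counted in the members and in all annotated lncRNA genes. The motifs searched on the transcript strand were GTGCAATA, GTGCAAT and TGCAATA (8 or 7 bases, each site counted once, in the longest class it fits), in GENCODE M21 transcripts (build GRCm38). No annotated transcript of *Malat1*, *Miat* or *Pvt1* held such a match. The 6983-base Malat1-201 and the 9163-base Miat-205 also lacked TGCAAT, the 6-base core. Neat1-201, the long isoform of 20771 bases, held 1 match, or 0.048 per kb, and the short isoform Neat1-202 of 3004 bases held 0. The single transcript of *Kcnq1ot1*, of 93092 bases, held 5 matches, or 0.054 per kb. Among *Snhg11* transcripts, 1 match lay in Snhg11-202, a retained-intron transcript. Over the longest transcript of 13374 annotated lncRNA genes the density was 0.076 per kb and 10.6% held a match, rising to 38.6% of the 210 genes with at least 5000 bases. The *Neat1* site is TGCAATA, the 6-base core followed by A. It is given with its flanks, as are the 3 *Kcnq1ot1* sites that pair with all 7 seed bases (site in capitals, minus strand). These sites are where the seed letters of *miR-92b* meet these abundant RNAs. The other 2 *Kcnq1ot1* matches were TGCAATA.
*Neat1*, chr19:5836468-5836474: tggaatcaTGCAATAtgtactgtt
*Kcnq1ot1*, chr7:143285131-143285137: gttgcaggGTGCAATgagagatta
*Kcnq1ot1*, chr7:143264654-143264660: ggaaagatGTGCAATtctgatggc
*Kcnq1ot1*, chr7:143211484-143211490: tgtaaagtGTGCAATtccctttca

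The 3′ ends matter here because oligo-dT beads hold RNA by stretches of A. Neat1-201 ends with 11 bases, AAAAAGCAAAA, that also occur once in Malat1-201, 292 bases before its annotated end. These 11 bases were found in 3 of the 6 members, the third being *Kcnq1ot1*, and in 0.501% of the 13374 lncRNA genes, or 4.76% of those with at least 5000 bases. In the windows below, on the minus strand of chromosome 19, the shared bases are in capitals.
*Malat1*, chr19:5795977-5796006: tagctttaaaaaaaAAAAAGCAAAAgacgc
*Neat1*, chr19:5824708-5824732: cgaacgtgagcaggAAAAAGCAAAA
The stretch of A in Malat1-201 was 12 bases long, and the longest in *Kcnq1ot1* was 41 bases. The longest in any transcript of *Neat1*, *Miat*, *Pvt1* and *Snhg11* were 7, 4, 9 and 9 bases. A run of at least 10 A occurred in 43.3% of the lncRNA genes of at least 5000 bases. What part these stretches had in capture was not tested.

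Of the 6 members, 4 had a mean normalized count (fragments on a locus divided by a size factor per sample) of at least 10 and were tested, among 15579 loci. *Malat1*, *Neat1*, *Kcnq1ot1* and *Pvt1* were all higher in nuclear than in whole cell samples when the 3 treatments were averaged, the first 3 by close to 1 and *Pvt1* by 0.43 on the log2 scale. Of all tested loci, 31.0% changed in this comparison and 15.3% were higher and 15.8% lower in nuclear samples (limma, Benjamini-Hochberg adjusted p below 0.05). *Malat1*, *Neat1* and *Kcnq1ot1* had every nuclear sample above every whole cell sample, which held for 2.91% of the loci. Values are relative to the total of a sample, so that more of an RNA and less of the rest cannot be told apart, and in bulk lysates neither can fewer cells with an RNA and less RNA per cell.

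*Malat1* (GRCm38, chr19:5795690-5802672, minus strand, 1 exon in its longest transcript) was the most abundant member. In nuclear samples its normalized counts were 97679, 91489 and 101533 in control, 91317, 84335 and 79997 in Scr, and 103245, 89319 and 86148 in *miR-92b*. In whole cell samples they were 43528, 38046 and 51493 in control, 50238, 47232 and 58387 in Scr, and 47041, 42614 and 22763 in *miR-92b*. The lowest nuclear sample stood above the highest whole cell sample, and the third whole cell *miR-92b* sample was far below the rest. *Malat1* was the locus with the highest normalized count in 8 of 9 nuclear samples and ranked 2 to 5 in the whole cell samples other than that low one, where it ranked 11. The mean was 91674 ± 7855 (SD, n = 9) in nuclear and 44593 ± 10045 (SD, n = 9) in whole cell samples, a log2 difference of 1.08 (SE 0.16, limma adjusted p = 1.82e-05). This difference lay at percentile 84.2 of all tested loci.

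*Neat1* (chr19:5824708-5845478, minus strand) shares its locus with the symbol Gm27702, so that its counts cannot be told apart from those of that RNA. Nuclear normalized counts were 32003, 30414 and 32452 in control, 32299, 30012 and 27265 in Scr, and 36168, 27029 and 28042 in *miR-92b*. Whole cell values were 15164, 12582 and 17141 in control, 17026, 15032 and 20694 in Scr, and 16521, 14046 and 7677 in *miR-92b*. The compartments did not overlap, and the lowest value again came from the third whole cell *miR-92b* sample. The nuclear mean of 30632 ± 2960 and the whole cell mean of 15098 ± 3601 (SD, n = 9 each) differed by 1.06 (SE 0.14, limma adjusted p = 4.50e-06) on the log2 scale. This difference was at percentile 83.7 of all tested loci.

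*Kcnq1ot1* (chr7:143203458-143296549, minus strand, antisense to *Kcnq1*) showed the same order of compartments. Nuclear normalized counts were 8692, 10220 and 11935 in control, 9914, 10314 and 10217 in Scr, and 10748, 9713 and 10074 in *miR-92b*. Whole cell values were 5127, 4973 and 5413 in control, 6423, 6485 and 6065 in Scr, and 5457, 6117 and 2280 in *miR-92b*. No whole cell value reached the lowest nuclear value. The means were 10203 ± 861 in nuclear and 5371 ± 1283 in whole cell samples (SD, n = 9 each), with a log2 difference of 0.98 (SE 0.14, limma adjusted p = 1.22e-05). This difference was at percentile 81.6 of all tested loci.

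*Pvt1* (chr15:62037986-62378096, plus strand, of which the longest transcript has 10 exons) differed least. Its locus also holds the symbols Gm27718, Gm27913 and Gm27957, whose counts cannot be told apart from its own. Nuclear normalized counts were 2412, 2975 and 2949 in control, 2401, 2485 and 1811 in Scr, and 2278, 2485 and 2806 in *miR-92b*. Whole cell values were 1774, 1812 and 1784 in control, 2269, 1920 and 1979 in Scr, and 1900, 2395 and 1073 in *miR-92b*. The compartments overlapped in the Scr and *miR-92b* groups. The control groups stood apart, but how many of all loci did the same was not counted. The nuclear mean was 2511 ± 364 and the whole cell mean 1878 ± 371 (SD, n = 9 each), a log2 difference of 0.43 (SE 0.12, limma adjusted p = 0.00985) at percentile 63.2 of all loci. On FPKM, which divides by transcript length, *Pvt1* did not pass the test. The means were 48.6 ± 9.63 and 48.2 ± 9.26, and the log2 difference was 0.00 (95% interval -0.32 to 0.33, adjusted p = 0.99).

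**Figure D1:**
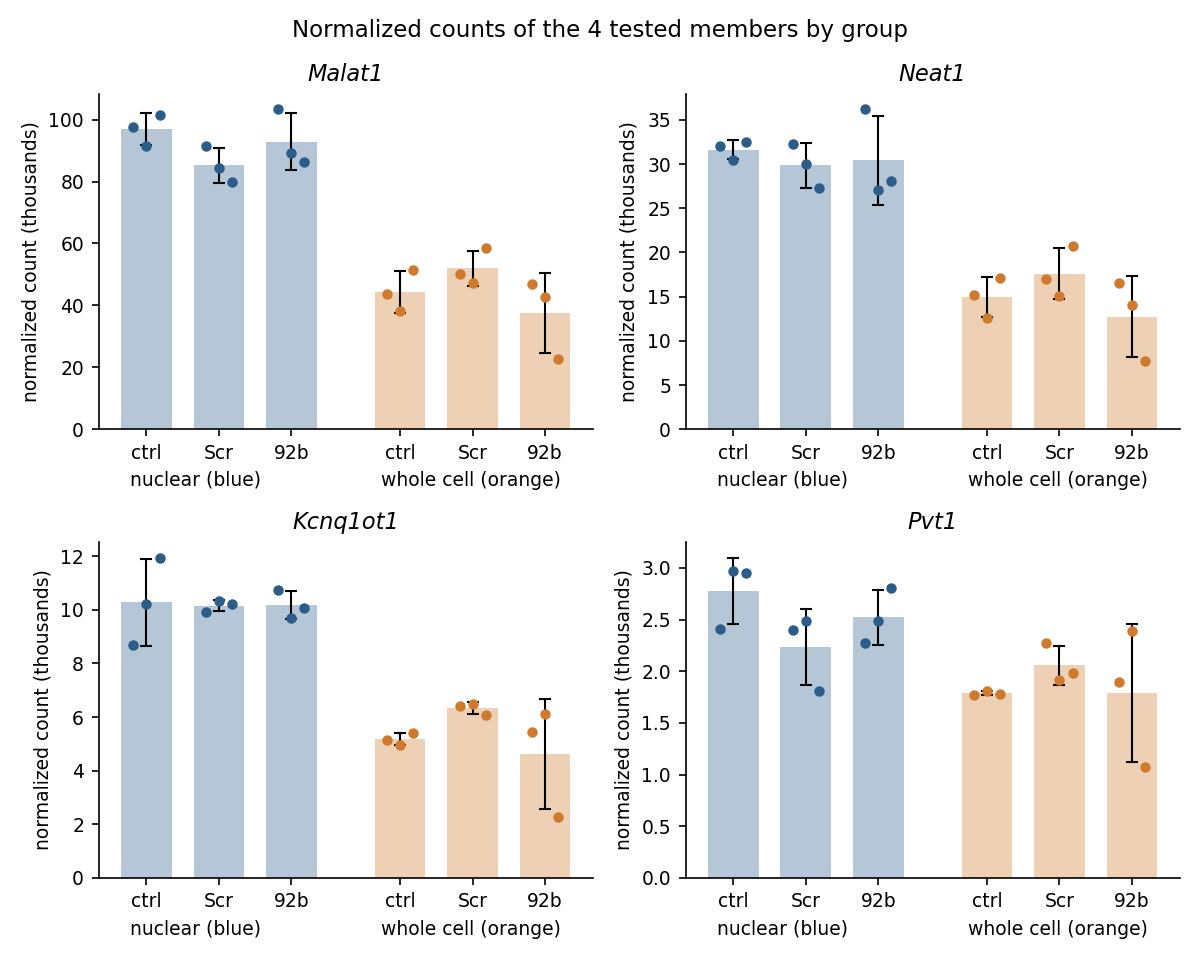
Normalized counts (linear axis from 0, in units of 1000) of *Malat1*, *Neat1*, *Kcnq1ot1* and *Pvt1* in nuclear (blue) and whole cell (orange) samples of control (ctrl), Scr and *miR-92b* (92b). Points are samples in the order of their numbers, bars are group means and error bars are SD (n = 3). Nuclear values lie above whole cell values for the first 3 RNAs, *Pvt1* overlaps, and the third whole cell *miR-92b* sample is the lowest whole cell sample in all 4 panels.

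*Miat* (chr5:112213228-112229395, minus strand) and *Snhg11* (chr2:158375638-158386145, plus strand) were close to absent from these libraries and were not tested. The *Miat* locus also holds 4 other symbols and the *Snhg11* locus 1. *Miat* had 2 reads in the first nuclear control sample, 3 in the third nuclear *miR-92b* sample and 0 in the other 16 samples. *Snhg11* had 1 read in the third nuclear control sample, 1 in the second nuclear *miR-92b* sample, 2 in the first whole cell control sample and 3 in the first whole cell *miR-92b* sample. A count of 0 in a sample allows up to 3 reads, so that no fold between compartments is given for either RNA. Nuclear and whole cell levels could be compared for 4 of the 6 members only, and retention itself was not tested. Miat-205 holds TACTAAC, the SF1-binding repeat, 6 times, against at least once in 18.1% of lncRNA genes of at least 5000 bases, while *Kcnq1ot1* held it 4 times and Neat1-201 once. The annotation used here lists Snhg11-201 as protein-coding.

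Per length, the order of the members was *Malat1*, *Neat1*, *Pvt1* and *Kcnq1ot1* in every sample group. In nuclear samples *Malat1* had 2247 ± 206 FPKM, *Neat1* 188 ± 19.8, *Pvt1* 48.6 ± 9.63 and *Kcnq1ot1* 15.7 ± 1.24 (SD, n = 9). In whole cell samples the values were 1096 ± 235, 103 ± 17.05, 48.2 ± 9.26 and 7.95 ± 2.08 FPKM in the same order (SD, n = 9). The ranges of neighbours in this order did not overlap within a compartment. All members together took 2.02% to 2.62% of the reads on named loci in nuclear samples and 0.502% to 1.45% in whole cell samples.

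Ratios between members within a sample do not depend on how samples are scaled, and were compared between compartments by an exact two-sided permutation test within treatments (8000 arrangements, 6 pairs, a test chosen after the data were seen). *Malat1* and *Neat1*, neighbours on chromosome 19, had overlapping ratios, 2.81 to 3.30 in nuclear and 2.82 to 3.14 in whole cell samples, with a log2 difference of 0.02 (exact p = 0.587). *Malat1* over *Kcnq1ot1* differed by 0.10 (exact p = 0.234) and *Neat1* over *Kcnq1ot1* by 0.08 (exact p = 0.389). *Pvt1* behaved differently from these 3. Its compartment difference of 0.43 was closer than theirs (0.98 to 1.08) to the median of all loci, 0.14. Ratios of the members to other loci were not counted, so that the shift cannot be called particular to *Pvt1*. The 3 pairs that hold *Pvt1* share its values, so that their tests are not independent. *Malat1* over *Pvt1* ran from 30.7 to 45.3 in nuclear and from 17.8 to 29.5 in whole cell samples, with no overlap, and differed by 0.64 on the log2 scale (exact p = 0.00025, the smallest p these permutations can give, adjusted p = 0.0005). *Neat1* over *Pvt1* differed by 0.62, with overlap between 9.99 and 10.5, and *Kcnq1ot1* over *Pvt1* by 0.54 without overlap, both with the same exact p and adjusted p = 0.0005. Without the third whole cell *miR-92b* sample these 3 differences were 0.64, 0.63 and 0.50 (in the same order), again at the smallest possible exact p (0.00025).

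**Figure D2:**
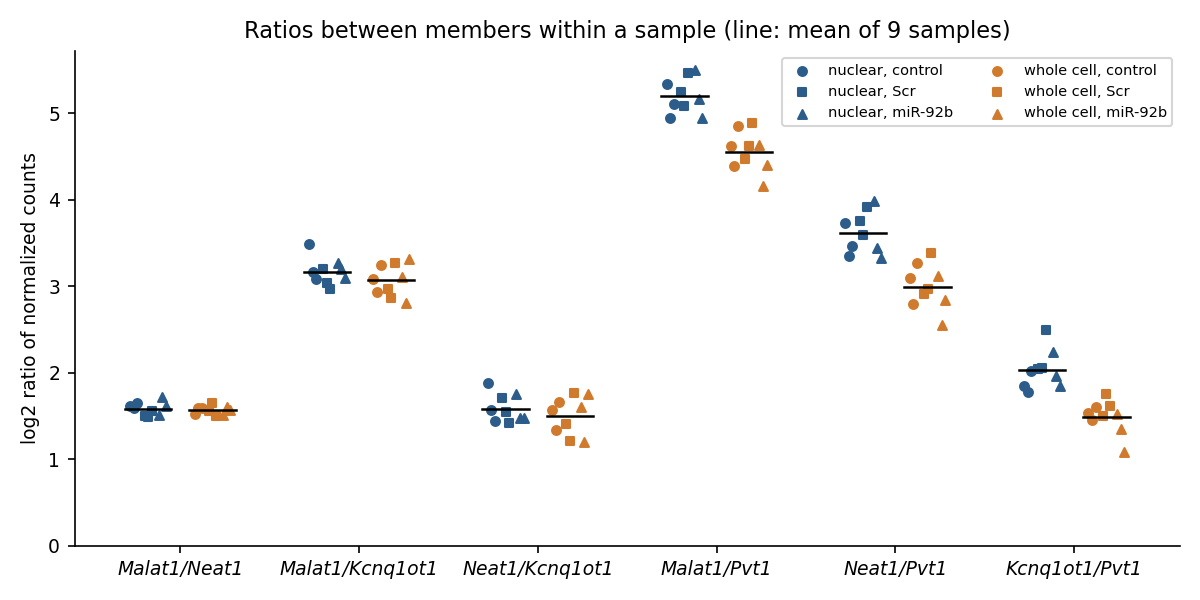
Log2 ratio of the normalized counts of 2 members in the same sample, for 6 pairs. Symbols are samples by treatment (circle control, square Scr, triangle *miR-92b*), blue is nuclear, orange whole cell, and lines are means of 9 samples. The 3 pairs without *Pvt1* have near-equal means in both compartments, and the 3 pairs with *Pvt1* are higher in nuclear samples by 0.54 to 0.64.

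Across samples of the same kind, *Malat1* and *Neat1* also moved together. Pearson's r of their log2(normalized count + 1) was 0.83 over the 9 nuclear samples and 0.99 over the 9 whole cell samples, or 0.97 without the third whole cell *miR-92b* sample. For *Malat1* and *Pvt1* r was 0.39 in nuclear samples, and 0.81 in whole cell samples with and 0.07 without that sample. *Malat1* and *Kcnq1ot1* had 0.23 in nuclear samples, and 0.92 with and 0.50 without it in whole cell samples. *Kcnq1ot1* and *Pvt1* had 0.26, 0.94 and 0.71 in the same order, so that *Pvt1* was not apart from all members in this measure. These values share size factors and depth and are descriptions. Likeness over all 18 samples, given next, also holds the difference between compartments and the third whole cell *miR-92b* sample. All loci named for it had a higher mean in nuclear than in whole cell samples. Over all 18 samples the loci most like *Malat1* were *Pfkp* (r = 0.97), *Prune2* (0.97) and *Rsrp1* (0.97), those most like *Neat1* were *Prune2* (0.98), *Pfkp* (0.97) and *Crebzf* (0.97), those most like *Kcnq1ot1* were *Tmem108* (0.99), Gm17214 (0.98) and *Tmem74* (0.98), and those most like *Pvt1* were Gm45223 (0.93), Gm44667 (0.93) and *Zfp655* (0.93), out of 9485 loci of 1 symbol with a mean of at least 50.

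Dividing a member's normalized count by its FPKM gives the transcript length that the authors' FPKM assumes, here scaled in each sample to 789 loci of 1 annotated transcript. Between percentiles 10 and 90 of those loci the implied length was 0.667 to 2.12 times the annotated one, so that single lengths are coarse and their comparison between samples is the finer measure. *Neat1* had an implied length of 20878 ± 313 bases in nuclear samples (SD, n = 9), close to the 20771 bases of the long isoform. In whole cell samples it was 19174 to 21086 bases in 8 samples and 12422 bases in the third *miR-92b* sample, which lies between the long and the 3004-base short isoform. *Kcnq1ot1* had 83252 ± 2698 bases in nuclear and 92307 ± 6718 in whole cell samples, and 8 of 9 nuclear samples lay below every whole cell sample. *Malat1* had 5234 ± 250 and 5474 ± 405 bases, with overlap. *Pvt1* had 6747 ± 826 bases in nuclear and 5298 ± 926 in whole cell samples, a ratio of 1.27 that was not tested, in both above the 3319 bases of its longest annotated transcript. The compartments overlapped, from 5878 to 8684 bases in nuclear and from 3937 to 6871 in whole cell samples, and 2 of 9 nuclear samples lay above every whole cell sample.

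**Figure D3:**
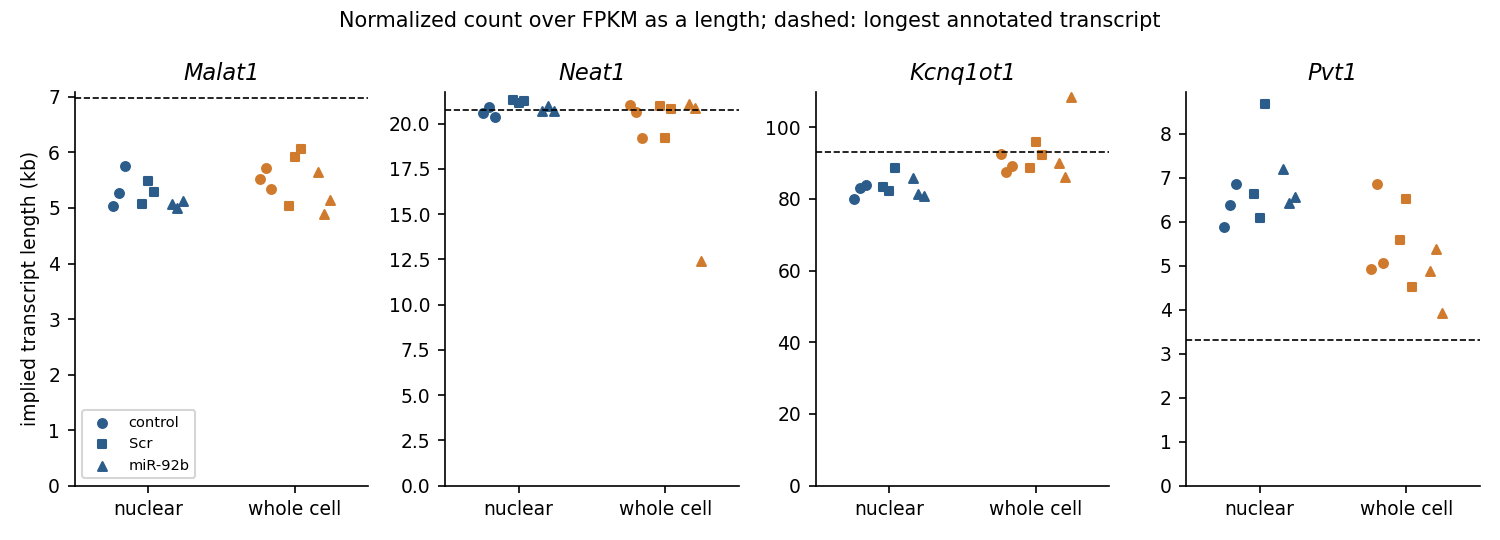
Implied transcript length (kb, axes from 0) of the 4 members in each sample, by compartment and treatment (circle control, square Scr, triangle *miR-92b*), with the longest annotated transcript dashed. *Neat1* lies at the length of its long isoform in all samples but 1, the third whole cell *miR-92b* sample, and the *Pvt1* values of the compartments overlap.

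The third whole cell *miR-92b* sample stood apart in more than these members. It was the lowest whole cell sample for 4 of 4 tested members and for 20.8% of all tested loci. Of 14 cytosolic mRNA markers it was the highest whole cell sample for 13, against 23.6% of all loci, with a normalized count of 12918 for *Gapdh* (3134 to 6628 in the other 8) and of 42643 for *Eef2* (11488 to 24046 in the other 8). Without it, the nuclear and whole cell means of the 3 treatments differed by 0.97 for *Malat1*, 0.95 for *Neat1*, 0.83 for *Kcnq1ot1* and 0.32 for *Pvt1*. All 4 passed the test (limma adjusted p of at most 0.00622), where 4453 of 15579 loci did.

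Within each treatment, the comparison of compartments rested on 3 against 3 samples. In control samples *Malat1* was higher in nuclear samples by 1.14 (SE 0.28, limma adjusted p = 0.00968), *Neat1* by 1.09 (SE 0.25, adjusted p = 0.00514) and *Kcnq1ot1* by 0.98 (SE 0.24, adjusted p = 0.0108), and *Pvt1* had 0.63 (SE 0.21, adjusted p = 0.0667). This was 3 of 4 members, where 9.85% of all loci passed. With FPKM in place of counts 1 member, *Neat1*, passed (log2 difference 0.98, limma adjusted p = 0.00562), where 1140 of 15579 loci did.

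In Scr samples none of the 4 passed, where 5.17% of all loci did. The differences were 0.72 for *Malat1* (adjusted p = 0.127), 0.77 for *Neat1* (adjusted p = 0.0661), 0.68 for *Kcnq1ot1* (adjusted p = 0.0986) and 0.11 for *Pvt1* (adjusted p = 0.818, limma). The counts of the first 3 RNAs did not overlap between these groups. How many of all loci did the same was not counted, so that this is a description only. The third whole cell *miR-92b* sample enters this comparison only through the spread that all groups share in the model. Without it *Malat1*, *Neat1* and *Kcnq1ot1* passed with the same differences (limma adjusted p = 0.00184, 0.00123 and 0.00053). Passing became more frequent over all 15579 loci too, with 1744 called without that sample against 805 with it.

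In *miR-92b* samples 3 of 4 members passed, where 13.3% of all loci did. *Malat1* was higher in nuclear samples by 1.37 (adjusted p = 0.00189), *Neat1* by 1.31 (adjusted p = 0.000968) and *Kcnq1ot1* by 1.26 (adjusted p = 0.00131), and *Pvt1* had 0.57 (adjusted p = 0.0815, limma). Without the third whole cell sample the first 3 differences were 1.05, 0.98 and 0.82, and that of *Pvt1* was 0.24 (limma adjusted p = 0.479). In a model of these 2 groups alone none of the 4 passed (limma adjusted p = 0.0922 or more), where 597 of 15579 loci did.

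**Figure D4:**
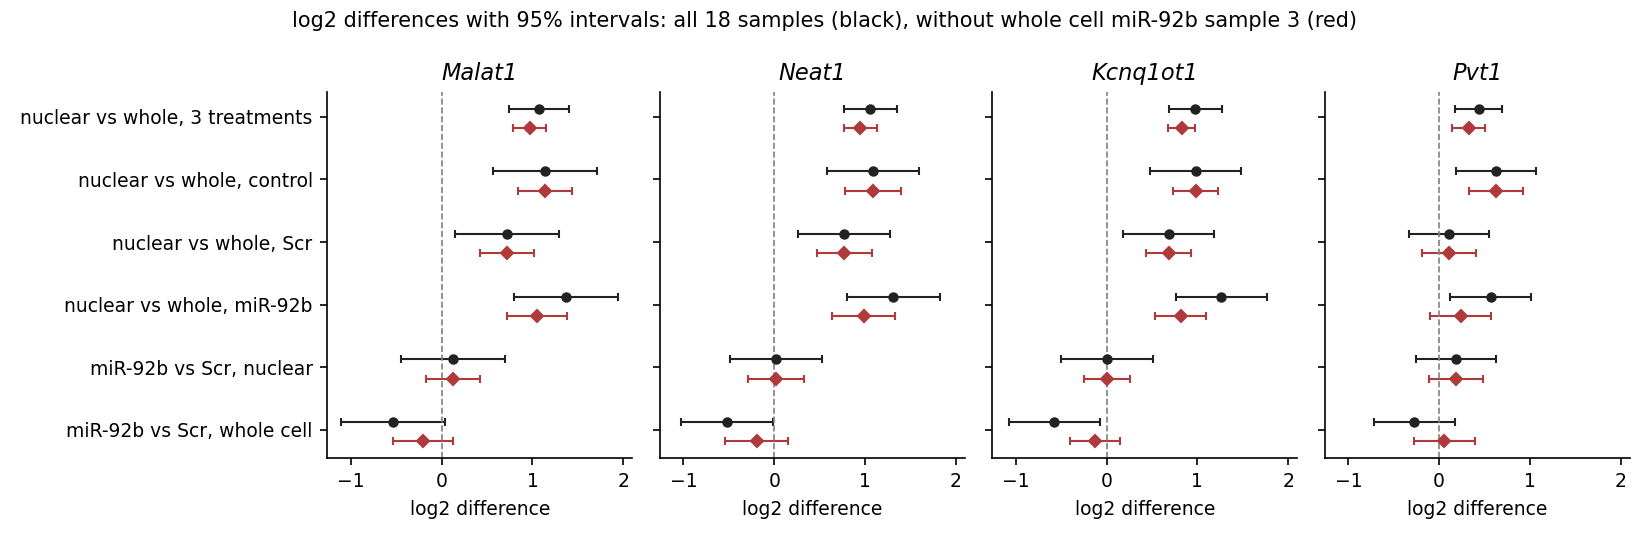
Log2 differences with 95% intervals from limma for each tested member, with all 18 samples (black circles) and without the third whole cell *miR-92b* sample (red diamonds). Rows are nuclear against whole cell samples for the mean of 3 treatments and for each treatment, and *miR-92b* against Scr in each compartment. Leaving out that sample shortens every interval, lowers the *miR-92b* compartment differences and moves the whole cell *miR-92b* differences from between -0.58 and -0.27 to between -0.21 and 0.06.

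The pulldown comparison asked whether *miR-92b* held more of these RNAs than Scr did. In nuclear samples no member passed the test, nor did any of the 15579 loci (0%). An unadjusted p below 0.05 was found for 687 loci, where a share of about 0.05 would fall there with no change at all. Here edgeR called 0 and DESeq2 called 1. The log2 differences of *miR-92b* from Scr were 0.12 for *Malat1* (95% interval -0.45 to 0.70), 0.02 for *Neat1* (-0.49 to 0.53), 0.0032 for *Kcnq1ot1* (-0.50 to 0.51) and 0.19 for *Pvt1* (-0.26 to 0.63). A p that misses the threshold does not show that the pulldowns held equal amounts, and the interval of *Kcnq1ot1*, the member with most seed matches, spans 0.50 in either direction.

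In whole cell samples no member passed either, and 0.00642% of all loci, a single locus, did. Here 1515 loci had an unadjusted p below 0.05, edgeR called 1, DESeq2 called 176, and limma called 77 without the first whole cell *miR-92b* sample. The differences were -0.53 for *Malat1* (95% interval -1.11 to 0.04), -0.52 for *Neat1* (-1.03 to -0.02), -0.58 for *Kcnq1ot1* (-1.08 to -0.07) and -0.27 for *Pvt1* (-0.72 to 0.17), with adjusted p from 0.466 to 0.707 (limma). Without the third *miR-92b* sample they were -0.21, -0.19, -0.13 and 0.06. That sample also stood highest for cytosolic mRNAs, and the part of this in the differences was not tested. The difference between the nuclear and the whole cell effect of *miR-92b* over Scr ran from 0.46 to 0.66 over the 4 members (without that sample 0.13 to 0.33) and did not pass for any (limma adjusted p from 0.704 to 0.725), where 0.00642% of all loci did.

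The control samples give the level of these RNAs collected without a tagged mimic, and no difference from those with one passed the test. Against control, no member passed the test with *miR-92b* in nuclear samples (0% of all loci) or in whole cell samples (0.00642%), nor with Scr in nuclear (0%) or whole cell samples (0%). Where no locus passed, unadjusted p was below 0.05 for 50 loci (*miR-92b*, nuclear), 916 (Scr, nuclear) and 793 (Scr, whole cell). With no change at all a share of about 0.05 of the loci would fall there. In the same comparisons edgeR called 0 in each and DESeq2 called 0, 0 and 37. The comparisons against control share their control samples. The log2 differences of *miR-92b* from control lay between -0.14 and -0.0039 in nuclear and between -0.30 and -0.08 in whole cell samples, or between 0.02 and 0.25 without the third *miR-92b* sample. Those of Scr lay between -0.32 and -0.0071 in nuclear and between 0.20 and 0.29 in whole cell samples.

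Other loci of the same regions were examined because reads of the opposite strand can be counted with a gene where strand is not kept. The library kit keeps strand, and how the counting used it is not given in the sources used here, so that overlapping loci cannot be told apart from each other with certainty. In the *Malat1* region Gm20417 had a mean normalized count of 672 in nuclear and 299 in whole cell samples, and Gm37376, annotated on the plus strand, had 833 and 309. Both were higher in nuclear samples, by 1.24 (SE 0.17, adjusted p = 8.39e-06) and 1.49 (SE 0.19, adjusted p = 1.98e-06) on the log2 scale (limma), at 0.462% to 1.16% of the count of *Malat1* over all samples. *Kcnq1*, the coding gene opposite *Kcnq1ot1*, had a mean of 0.446 in nuclear and 0.338 in whole cell samples, at most 0.0468% of *Kcnq1ot1* in any sample. In the *Pvt1* region H2afy3 had means of 77.4 and 34.0 and was higher in nuclear samples by 1.62 (SE 0.61, limma adjusted p = 0.047), at 0.0132% to 4.38% of the count of *Pvt1*, and in the *Neat1* region *Frmd8* had 58.4 and 80.0.

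Other lncRNAs known to stay in the nucleus were taken as a list of 27 symbols, found at 41 loci. *Snhg14* and *Nespas* each had several tested loci, so that the tested loci outnumber the genes tested. The most abundant *Snhg14* locus also holds *Snrpn* and *Snurf*. Of the 41 loci, 27 were tested. Of these 10 were higher in nuclear samples and 0 lower (mean of 3 treatments, limma; 15.3% and 15.8% of all loci), with a median difference of 0.78 against 0.14 over all loci, and 13 of 27 had their lowest whole cell value in the third *miR-92b* sample. *Xist*, which coats the inactive X chromosome, had 28743 to 35116 normalized counts in nuclear samples (median 30873) and 7059 to 19270 in whole cell samples (median 17204). These did not overlap, and the difference was 1.03 (SE 0.15, adjusted p = 2.00e-05). *Tug1* rose by 0.92 (SE 0.10, adjusted p = 2.71e-07), *Lncpint* by 0.76 (SE 0.14, adjusted p = 0.000275) and *Nespas*, at the most abundant of its loci, by 0.78 (SE 0.13, adjusted p = 4.37e-05). *Meg3*, an imprinted lncRNA, was low, with means of 49.5 and 43.0, and had 1.65 (SE 0.86, adjusted p = 0.145). The loci named here for *Xist*, *Tug1*, *Lncpint*, *Nespas* and *Meg3* also hold other symbols.

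A pair of groups served for contrast, lncRNAs known from the cytosol and cytosolic mRNAs. Of 11 tested cytosolic lncRNAs 3 were lower in nuclear samples and 1 was higher, against 15.8% and 15.3% of all loci, with a median of -0.34 (0.14 over all loci). *Snhg5* fell by 0.70 (adjusted p = 0.00105), *Zfas1* by 0.58 (adjusted p = 0.0124) and 2900097C17Rik by 1.05 (adjusted p = 0.0287), while *Gas5* rose by 0.79 (adjusted p = 0.00133, limma). Of 14 cytosolic mRNAs 12 were lower and 0 higher, against the same shares of all loci, with a median of -2.04, among them *Rplp0*, a ribosomal protein, at -3.67 (SE 0.27), *Hsp90ab1*, a chaperone, at -2.69 (SE 0.16) and *Eno1*, a glycolytic enzyme, at -1.15 (SE 0.17).

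Messenger RNAs of the proteins that meet these lncRNAs were also looked at. Of 15 tested mRNAs of paraspeckle proteins, the partners of *Neat1*, 10 were higher in nuclear samples and 1 lower, against 15.3% and 15.8% of all loci, with a median of 0.45 (0.14 over all loci). *Sfpq* rose by 0.68 (adjusted p = 0.000625), *Ewsr1* by 0.59 (adjusted p = 0.00206), *Cpsf6* by 0.45 (adjusted p = 0.00117) and *Matr3* by 0.39 (adjusted p = 0.00248, limma). The lower one, named after its value was seen, was *Nudt21*, a subunit of the cleavage factor that also holds CPSF6, at -1.62 (SE 0.21). The loci of *Sfpq* and *Matr3* also hold other symbols. Of 14 mRNAs of nuclear speckle proteins and *Miat* partners 7 were higher and 2 lower, with a median of 0.24, against the same shares and median of all loci. *Sf3b1* rose by 0.74, *Son* by 0.55, *Rbm25* by 0.46 and *Sf1*, whose protein binds the *Miat* repeat, by 0.37 (limma adjusted p of at most 0.0139), and the 2 lower ones, named after their values were seen, were *Ptbp1* at -0.79 and *Hnrnpc* at -1.03.

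Coding genes near the members on their chromosomes were counted in the same way. Of 22 symbols 14 loci were tested, and in nuclear samples 3 rose and 3 fell, with a median of -0.30. With 15.3% of all loci higher and 15.8% lower, these counts are near the background. *Cars*, near *Kcnq1ot1*, rose by 0.42 (adjusted p = 0.0147) and *Ralgapb*, near *Snhg11*, by 0.36 (adjusted p = 0.00431), whereas *Nap1l4* and *Tssc4*, near *Kcnq1ot1*, fell by 0.74 (adjusted p = 0.000559) and 0.45 (adjusted p = 0.0361, limma). The *Tssc4* locus also holds the symbol *Cd81*, whose counts cannot be told apart from its own. *Cdkn1c* and *Phlda2*, imprinted genes of the *Kcnq1ot1* domain, had means of at most 5.41 normalized counts and were not tested. *Myc*, next to *Pvt1*, had 322 ± 57.9 in nuclear and 411 ± 96.7 in whole cell samples (SD, n = 9) and -0.34 (SE 0.15, adjusted p = 0.0967). For *miR-92b* against Scr, no locus of any of these 6 lists passed the test in either compartment.

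**Figure D5:**
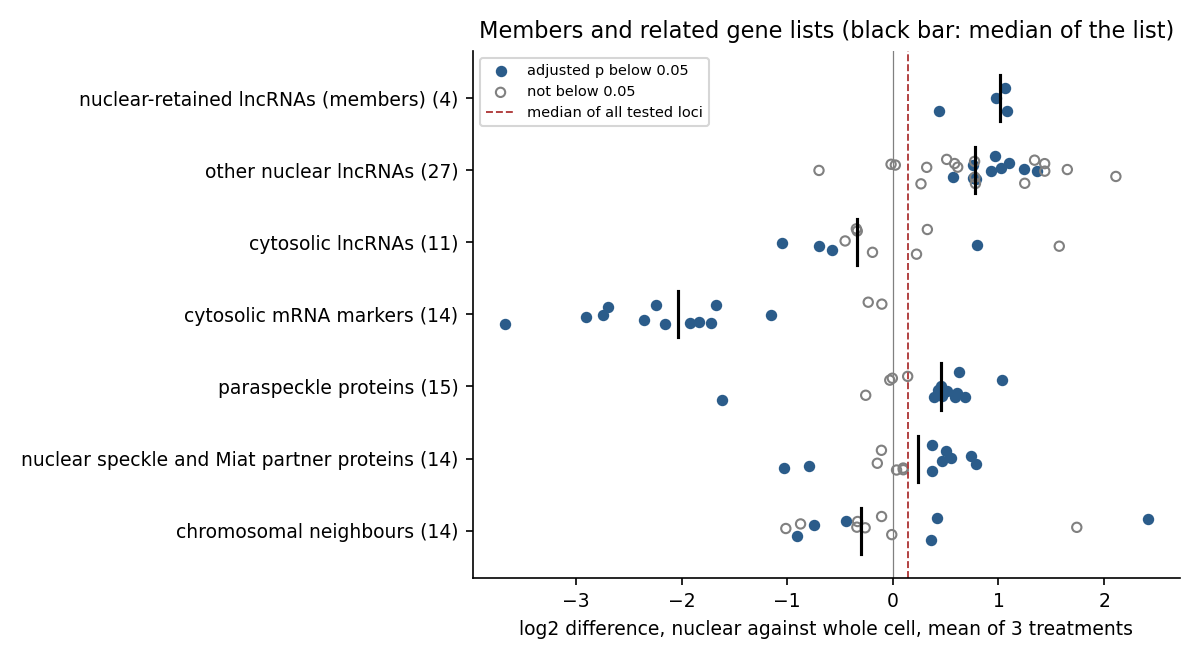
Log2 difference of nuclear against whole cell samples (mean of 3 treatments) for the tested members and the tested loci of 6 lists, each with its number of loci. Filled points passed the test (limma adjusted p below 0.05), open points did not, black bars are list medians and the dashed line is the median of all loci, 0.14. Members lie from 0.43 to 1.08, and cytosolic mRNAs have a median of -2.04.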

How the data were processed

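RNA from bead pulldowns of nuclear and whole cell Neuro2A lysates was sequenced in 18 samples, 3 for each of control, Scr and *miR-92b* per compartment. Samples were grouped by their labels. The deposited normalized counts are a signal that the authors made by dividing the fragments on each locus by 1 size factor per sample, and the authors' FPKM is relative to transcript length and mapped fragments. Per the submitters' processing notes, bcl2fastq 2.17, Trimmomatic 0.30, TopHat2 and Cufflinks were used with mm10 (GRCm38). For TopHat2 and Cufflinks no version, and for the annotation no release, is given in the sources used here. Tables of the authors' group comparisons (FPKM per group, fold changes, p and q) were not used. Every per-sample column was mapped.

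Of 635205 normalized counts above 0, 99.9% were whole multiples of 1 read (within 0.02 reads), so reads were recovered for DESeq2, edgeR and depth, while edgeR as the main test would have needed deposited counts. Depth was 3752991 to 22920038 reads per sample, and intervals for it would cover counting error only. Loci with no symbol (115957, with 4.51% to 15.3% of reads) were left out. Of the tested loci, 1197 join several symbols.

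The test was limma 3.58.1 (R 4.3.3) (trended prior variance) of log2(normalized count + 1), 6 groups in 1 model, two-sided, Benjamini-Hochberg adjustment over 15579 loci with a mean of at least 10, threshold 0.05. Fold changes are on that scale. Alternatives were pseudocounts of 0.5 and 8, minimum means of 1 and 50 or none, FPKM + 0.1, equal medians, quantile normalization, the compared groups alone, sample weights, the sample number as a block, DESeq2 1.42.0, edgeR 4.0.16 and each sample left out. DESeq2 gave no adjusted p for 18 loci in most comparisons, and for 4835 loci in nuclear against whole cell control samples. The fits were tried on simulated data with log2 changes larger than those of the members and with no deviating sample. That trial does not show how well smaller differences are found.

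The members, the lists and the rule for naming were chosen with earlier results of these data known. By that rule all members were named, of each list up to 4 called loci of highest mean, and *Gapdh*, *Eef2*, *Meg3*, *Xist* and *Tug1*, and per member the 3 loci of highest correlation. Sequences are from RefSeq (GRCm38.p6) and GENCODE M21. Implied lengths were scaled to loci of 1 transcript of at least 1000 bases and a mean of at least 50 reads. Some markers of cell types are not named here.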

Additional observations from a re-analysis of the deposited data

Results flagged for a closer look

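Among the 9 samples of a compartment, the lowest or highest value of a member was compared with the gap to its neighbour, divided by the range, and 5 of 16 such sets passed Dixon's critical value for 9 samples (95% level). Chance alone gives about 1 in 20. In 4 of the 5 the sample was the third whole cell *miR-92b* sample, and the 9 samples span 3 treatments. Its normalized count of *Kcnq1ot1* was 2280, next to 4973 (gap over range 0.640), and that of *Pvt1* was 1073, next to 1774 (0.531). Its implied length of *Neat1* was 12422 bases, next to 19174 (0.779), and that of *Kcnq1ot1* was 108423 bases, next to 95842 (0.566). The same sample had the highest whole cell counts of 13 of 14 cytosolic mRNA markers. The other was the third nuclear Scr sample, with an implied length of *Pvt1* of 8684 bases next to 7212 (0.525) and the lowest nuclear count of *Pvt1*, 1811. Groups of 3 samples were not examined in this way.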

How the results depend on the processing

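All 4 tested members were called for the mean of 3 treatments under every alternative except FPKM, where *Pvt1* was not, and 330 of 340 counts of called members stayed within 1.5 times the main one. The other counts, out of 4 members, were as follows. In control samples FPKM gave 1 (main 3). In Scr samples (main 0), DESeq2 and the compared groups alone gave 3, a minimum mean of 1 and sample weights gave 2, and a minimum mean of 50 and a pseudocount of 8 gave 1. In *miR-92b* samples the compared groups alone gave 0 (main 3). Leaving out 1 sample gave 0 to 3 in Scr, with 1 without the first and 3 without the third whole cell *miR-92b* sample. The cause was not tested.

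Of 864 log2 differences of single members, 820 kept direction and side of the threshold, 24 passed it newly, 8 no longer did and 12 changed sign. For compartments, FPKM gave *Pvt1* -0.30 in Scr and -0.036 in *miR-92b*. For *miR-92b* against Scr in nuclear samples, *Neat1* was -0.10 with sample weights, and -0.11 to 0.096 with 1 sample left out (below 0 without the first *miR-92b* or the third Scr sample), and *Kcnq1ot1* was -0.0069 with DESeq2, -0.00051 with FPKM, -0.031 with quantile normalization, -0.0023 with sample weights, and -0.037 to 0.036 with 1 sample left out (below 0 without the first *miR-92b* or the first Scr sample). In whole cell samples *Pvt1* was -0.52 to 0.057 with 1 sample left out, above 0 without the third *miR-92b* sample.

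Over all loci, calls for the mean of 3 treatments were 3904 to 5391 (main 4831), in control 850 to 4315 (main 1535), in Scr 386 to 1744 (main 805) and in *miR-92b* 597 to 2914 (main 2071). For *miR-92b* against Scr they were 0 to 49 in nuclear and 0 to 176 in whole cell samples. With the sample number as a replicate block, 4, 3, 0 and 3 members were called for the mean, control, Scr and *miR-92b* compartment comparisons and 0 in the other comparisons, as without it. Same-numbered samples had correlations of -0.04 to 0.11 and none of 15 pairs of groups had all above 0.1, so the numbers were not taken to pair samples. *Miat* and *Snhg11* had at most 3 reads in any sample, and 0 in the deepest, the third whole cell Scr sample with 22920038 reads. The part of depth in these low counts was not tested.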
